A study of Mus musculus with 12 samples.

Results

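Neutrophils store their weapons in granules that are filled one class after another as the cell matures in the bone marrow. Primary granules are made in promyelocytes, secondary (specific) granules in myelocytes and metamyelocytes, and tertiary (gelatinase) granules later still, so the transcripts of secondary granule proteins mark immature granulocytes and are largely gone from circulating cells. In mice the spleen also makes blood cells, most actively in young animals. The genes described here are 10 that encode proteins of secondary and tertiary granules: Ltf, Lcn2, Camp, Ngp, Cd177, Olfm4, Mmp8, Chil3, Fcnb and Pglyrp1. They were taken by name, as all probe sets whose only gene symbol in the array annotation is one of them, which gave 10 probe sets, 1 per gene, of 45037 on the array without its controls. A further probe set carries the symbols of both Chil3 and its close paralog Chil4 and was left out.

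Total RNA from spleens of 12 BALB/c mice was hybridised, 1 mouse per Affymetrix array, in 4 groups of 3: Il1rn deficient (ko) at 1 month, wild type (wt) at 1 month, ko at 4 months and wt at 4 months. The product of Il1rn blocks the IL-1 receptor, and its loss on the BALB/c background is known to lead to joint inflammation without further treatment. By its title, the study looked for genes linked to phases of arthritis. The labels give neither the sex nor the joint state of a mouse, nor whether mice shared a litter, so the independence of the mice cannot be checked. The p-values weigh each difference against the spread within these 4 groups, pooled over the groups and moderated across probe sets. Values are MAS5 signals per probe set, each array scaled to a trimmed mean of 500, and differences are in log2 of the signal plus 32. A probe set was called at a limma adjusted p under 0.05 over the 27041 probe sets with a signal of at least 100 in at least 3 arrays. All 10 genes passed that limit, 4 of them (Ltf, Camp, Ngp and Pglyrp1) with at least 100 in every array. Signals of different probe sets are not comparable as amounts, so each gene is compared only with itself.

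Of 3 Il1rn probe sets, 1 lay between 5.64 and 40.8 in the 6 ko spleens and between 120 and 278 in the 6 wt spleens, a second at 34.6 to 78.3 in ko and 81.2 to 208 in wt, and the third overlapped, at 10.5 to 98.0 in ko and 24.3 to 199.8 in wt. Arrays fell into 6 with a highest deposited signal of 33427 to 37921 and 6 with 51247 to 68987, called the low and the high array set here. Of the 1-month arrays, the low set held 3 ko and 1 wt, and at 4 months it held 1 of each genotype. In wt at 4 months replicate 2, the summed signal of a list of pancreas genes was 98930, against 1442 to 2623 in the other 11 arrays. It enters every value of wt at 4 months, and the comparisons that use those values are also summarised without it. B cell markers, the check of the labelled tissue, had summed signals of 24323 to 29199 in ko and 35142 to 38717 in wt at 1 month, and 47136 to 58506 in ko and 56187 to 65885 in wt at 4 months. In whole tissue, more cells of a type and more RNA per cell cannot be told apart.

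The promoters are shown for the 5 genes whose window, 250 bases before to 50 bases after the annotated start, holds a match to the letters TTGCNNAA on either strand, a half-palindrome bound by C/EBP factors. C/EBP epsilon is the factor known for switching on secondary granule genes. All 10 genes had a window in RefSeq's GRCm38.p6 table, and 5 held the match, against 10.8% of all 32851 windows. A match is only a run of letters and not a shown binding site. The sequences read 5' to 3' on the gene's strand, with the matches in capitals. The Ltf window is chr9:111019042-111019341 (plus strand), the Lcn2 window chr2:32387690-32387989 (minus strand), the Ngp window chr9:110419558-110419857 (plus strand), the Mmp8 window chr9:7558179-7558478 (plus strand) and the Fcnb window chr2:28084829-28085128 (minus strand).
Ltf: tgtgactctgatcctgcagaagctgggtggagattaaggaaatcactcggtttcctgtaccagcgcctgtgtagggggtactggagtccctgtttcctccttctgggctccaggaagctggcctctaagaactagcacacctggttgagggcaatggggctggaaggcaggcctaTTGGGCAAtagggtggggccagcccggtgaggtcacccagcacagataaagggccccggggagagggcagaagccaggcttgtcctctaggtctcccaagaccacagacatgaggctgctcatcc
Lcn2: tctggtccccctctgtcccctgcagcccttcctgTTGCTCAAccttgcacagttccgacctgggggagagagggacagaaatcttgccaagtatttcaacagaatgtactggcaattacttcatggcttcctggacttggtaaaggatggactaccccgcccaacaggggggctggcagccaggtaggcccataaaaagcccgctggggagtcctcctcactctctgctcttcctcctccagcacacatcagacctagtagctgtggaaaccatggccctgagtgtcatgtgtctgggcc
Ngp: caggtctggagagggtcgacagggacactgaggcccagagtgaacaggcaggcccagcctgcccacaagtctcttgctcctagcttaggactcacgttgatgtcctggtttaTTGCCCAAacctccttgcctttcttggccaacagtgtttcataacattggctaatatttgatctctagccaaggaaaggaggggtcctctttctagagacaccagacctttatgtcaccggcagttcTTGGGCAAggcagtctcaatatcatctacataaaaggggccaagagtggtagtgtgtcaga
Mmp8: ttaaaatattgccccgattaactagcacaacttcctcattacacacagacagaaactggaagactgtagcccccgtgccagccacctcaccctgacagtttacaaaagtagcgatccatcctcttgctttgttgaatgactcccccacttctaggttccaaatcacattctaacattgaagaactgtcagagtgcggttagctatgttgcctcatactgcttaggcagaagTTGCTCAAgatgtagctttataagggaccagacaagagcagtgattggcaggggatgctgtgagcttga
Fcnb: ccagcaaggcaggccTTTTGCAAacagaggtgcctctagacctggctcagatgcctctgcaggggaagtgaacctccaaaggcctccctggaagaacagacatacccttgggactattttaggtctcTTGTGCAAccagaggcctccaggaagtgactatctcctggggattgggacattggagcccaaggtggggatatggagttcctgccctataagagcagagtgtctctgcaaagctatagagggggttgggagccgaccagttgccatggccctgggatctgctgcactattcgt

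Ngp and Fcnb each held 2 matches. Those of Ngp began 138 and 11 bases before the start, and those of Fcnb 235 and 123 bases before it. The single matches of Ltf, Lcn2 and Mmp8 began 75, 216 and 19 bases before the start. The letters AGGAAGT, bound by PU.1, a factor of all myeloid cells, were in the windows of Olfm4, Mmp8, Chil3 and Fcnb, 4 of 10 against 9.35% of all windows. The letters GGGA, any 4 bases and CC, bound by NF-kB, the factor that IL-1 signalling activates, were in those of Camp, Olfm4, Chil3 and Pglyrp1, 4 of 10 against 20.73%. No match overlapped a match of another motif, and the Cd177 window held none of the 3. Camp, Ngp and Ltf lie on chromosome 9 with 8 protein-coding genes between Camp and Ngp and 20 between Ngp and Ltf. Mmp8 is on the same chromosome but 1020 protein-coding genes away from Camp. Lcn2 and Fcnb are both on chromosome 2, Cd177 and Pglyrp1 on chromosome 7, Chil3 on chromosome 3 and Olfm4 on chromosome 14.

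At 1 month all 10 genes were called higher in ko spleens, and at 4 months 9 were. The background of probe sets called higher in ko was 0.203% at 1 month and 1.78% at 4 months. The 10 genes had a median log2 difference of 2.12 at 1 month (range 1.73 to 2.73) and 1.85 at 4 months (range 1.17 to 3.33), where the medians of all tested probe sets were -0.04 and -0.01. At each age the 3 ko spleens lay above the 3 wt spleens in all 10 genes, as they did in 7.99% of tested probe sets at 1 month and 10.9% at 4 months. Over both ages together 10 of 10 were called higher, from 1.57 (Fcnb) to 3.03 (Lcn2), where 2.83% of probe sets were. The plot of signals by spleen shows the 4 groups for each gene.

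**Figure D1:**
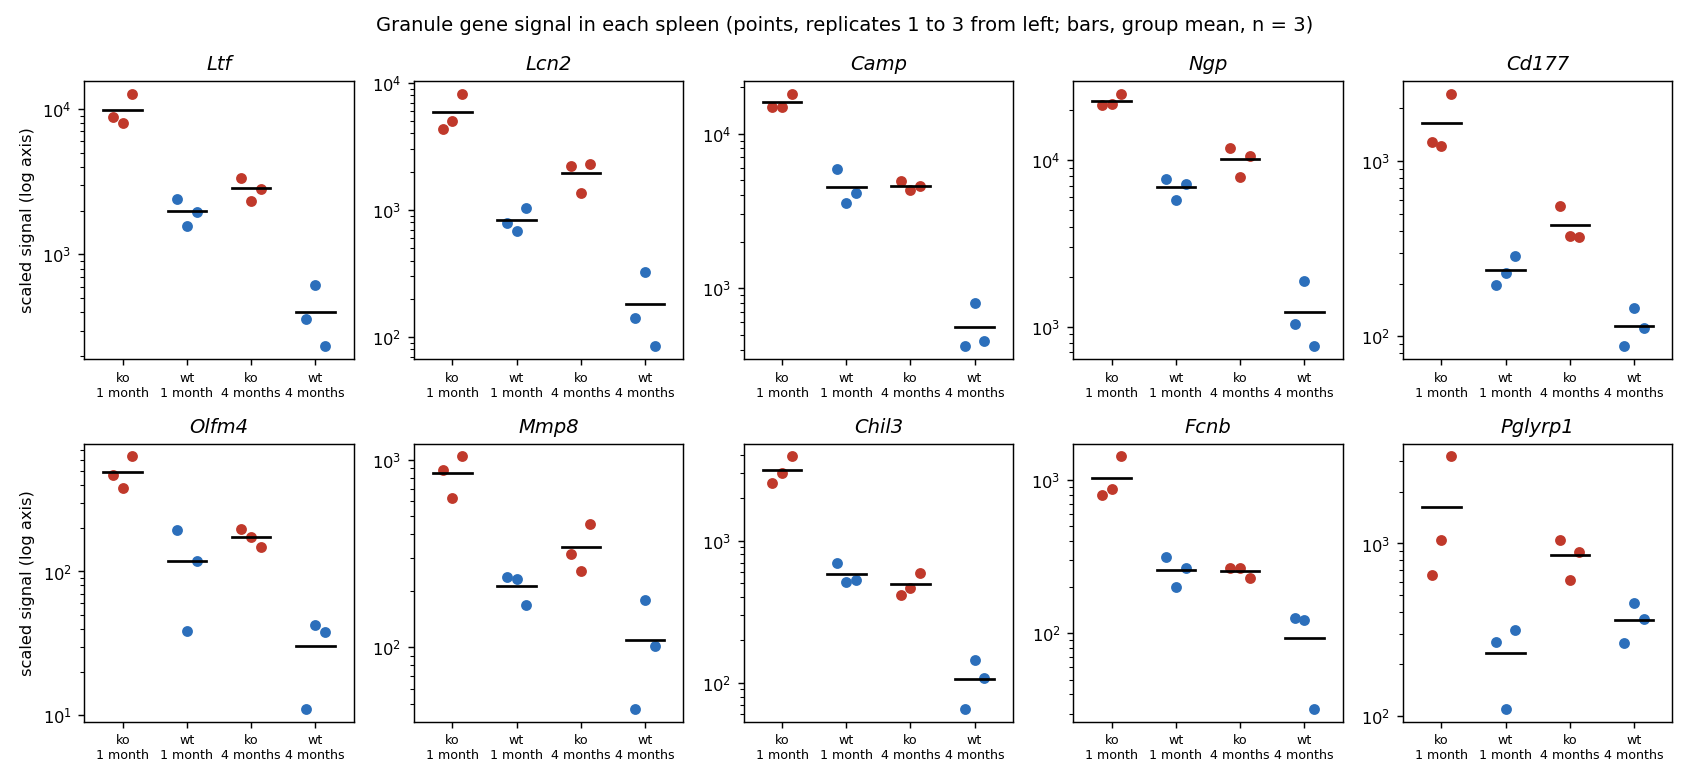
Scaled signal (log axis, 1 scale per gene) of the 10 granule genes in each spleen, with ko in red and wt in blue at 1 month and at 4 months; points are single mice and bars group means (n = 3). In every panel the 3 ko points lie above the 3 wt points of the same age, and in every panel but Pglyrp1 the 4-month means lie below the 1-month means of the same genotype.

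Ltf encodes lactoferrin, an iron-binding protein that defines secondary granules. Its signal was 8814, 8005 and 12734 in the ko spleens at 1 month, against 2393, 1578 and 1956 in wt. At 4 months it was 3372, 2344 and 2828 in ko, against 359, 621 and 233 in wt. The lowest ko spleen at 1 month was more than 3 times the highest wt spleen, and the ko spleens at 4 months overlapped with wt spleens of 1 month. Ltf rose by 2.29 log2 units (SE 0.27, limma adjusted p = 0.000329) at 1 month and by 2.80 (SE 0.27, limma adjusted p = 2.66e-05) at 4 months. Lcn2 encodes lipocalin-2, which captures the siderophores that bacteria use to take up iron. It stood at 4311, 5031 and 8224 in ko at 1 month, against 790, 682 and 1033 in wt, and at 2221, 1351 and 2312 in ko at 4 months, against 142, 323 and 84.5 in wt. The groups did not overlap, and the means differed 7.01-fold at 1 month and 10.7-fold at 4 months. On the log2 scale Lcn2 had the largest difference of the 10 genes at both ages, a rise by 2.73 (SE 0.33, limma adjusted p = 0.000509) at 1 month and 3.33 (SE 0.33, limma adjusted p = 4.56e-05) at 4 months.

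Camp and Ngp encode proteins that share the cathelin-like fold. Camp gives rise to the mouse cathelicidin peptide, which kills bacteria, and Ngp is a granule protein of mouse neutrophil precursors. Camp was at 14859, 14746 and 18102 in ko at 1 month, against 5910, 3577 and 4109 in wt, and at 4896, 4292 and 4599 in ko at 4 months, against 420, 805 and 452 in wt. Ngp was at 21416, 21835 and 25152 in ko at 1 month, against 7758, 5738 and 7171 in wt. At 4 months it was at 11900, 7937 and 10684 in ko, against 1035, 1890 and 762 in wt. The ko and wt spleens of the same age were apart. The coefficient of variation of Camp was 11.99% in ko and 27.0% in wt at 1 month and 6.58% in ko and 38.2% in wt at 4 months, and that of Ngp 8.98% in ko and 15.1% in wt at 1 month and 19.95% in ko and 47.9% in wt at 4 months. Camp rose by 1.83 (SE 0.21, limma adjusted p = 0.000355) at 1 month and 3.02 (SE 0.21, limma adjusted p = 1.03e-06) at 4 months. Ngp rose by 1.73 (SE 0.24, limma adjusted p = 0.00239) and 3.10 (SE 0.24, limma adjusted p = 3.27e-06). By p-value over both ages together, Camp ranked 5 and Ngp 10 among the 27041 probe sets.

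Cd177 encodes a surface glycoprotein that is also held in secondary granule membranes. Cd177 was at 1276, 1219 and 2413 in ko at 1 month, against 196, 229 and 288 in wt, and at 555, 371 and 367 in ko at 4 months, against 87.7, 145 and 112 in wt. It rose by 2.57 (SE 0.25, limma adjusted p = 7.78e-05) at 1 month and 1.65 (SE 0.25, limma adjusted p = 0.0026) at 4 months. Olfm4 encodes olfactomedin 4, a glycoprotein found in the secondary granules of some neutrophils only. Olfm4 was at 468, 380 and 632 in ko at 1 month, against 196, 38.4 and 119 in wt. At 4 months it was at 197, 173 and 149 in ko, against 11.0, 42.5 and 37.8 in wt. All 3 wt spleens at 4 months and 1 at 1 month were under the limit of 100, so its differences of 1.94 (SE 0.36, limma adjusted p = 0.0233) and 1.75 (SE 0.36, limma adjusted p = 0.0177) depend on the offset of 32. With an offset of 1 Olfm4 stood at 2.31 and its call at 1 month was lost (limma adjusted p = 0.0845), while at 4 months its difference was 2.66. The Olfm4 call was lost in 12 of 31 alternatives at 1 month and 6 of 32 at 4 months.

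Mmp8 encodes neutrophil collagenase, which cuts fibrillar collagen. Its signal was 880, 626 and 1041 in ko at 1 month, against 236, 230 and 168 in wt, and 316, 254 and 451 in ko at 4 months, against 46.8, 179 and 102 in wt. Mmp8 rose by 1.84 (SE 0.31, limma adjusted p = 0.00986) at 1 month and 1.48 (SE 0.31, limma adjusted p = 0.0178) at 4 months. The groups were apart at both ages, but at 4 months the lowest ko spleen stood at 254 and the highest wt spleen, replicate 2, at 179. The Mmp8 call at 4 months was lost in 8 of 32 alternatives.

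Chil3, Fcnb and Pglyrp1 encode proteins that bind sugars or bacterial walls. Chil3 (also called Ym1) is a chitinase-like lectin, made by neutrophil precursors and by alternatively activated macrophages of the mouse. Whether its probe set also binds transcripts of the paralog Chil4 was not tested. Chil3 was at 2554, 2976 and 3911 in ko at 1 month, against 695, 512 and 528 in wt, and at 417, 462 and 595 in ko at 4 months, against 65.3, 143 and 108 in wt. It rose by 2.37 (SE 0.22, limma adjusted p = 5.47e-05) and 1.95 (SE 0.22, limma adjusted p = 0.000194), and ranked 5 of all probe sets by p-value at 1 month. Of the other 5 tested genes of alternatively activated macrophages, 0 were called at either age by limma, with 3 and 0 at an unadjusted p under 0.05. The summed signal of that list was 3754 to 4438 in ko and 4715 to 5465 in wt at 1 month, and 6902 to 7201 in ko and 5339 to 7324 in wt at 4 months. The differences in that list lay on both sides of 0, with a median of -0.35 at 1 month and 0.18 at 4 months. At 1 month Retnla, a secreted protein of alternatively activated macrophages, was at 281, 216 and 297 in ko, against 19.5, 176 and 134 in wt, a difference of 1.28 (SE 0.42, limma adjusted p = 0.171). Clec10a stood at 0.36 (SE 0.28), Pdcd1lg2 at -0.42 (SE 0.24) and Cd163, a haemoglobin scavenger receptor, at -0.58 (SE 0.14, limma adjusted p = 0.0808).

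Fcnb encodes ficolin B, a lectin that can start complement activation and is also known from the monocyte lineage. Fcnb was at 796, 881 and 1429 in ko at 1 month, against 315, 199 and 266 in wt, and at 267, 268 and 229 in ko at 4 months, against 127, 123 and 32.1 in wt. It rose by 1.84 (SE 0.31, limma adjusted p = 0.00986) and 1.30 (SE 0.31, limma adjusted p = 0.0351), and the call at 4 months was lost in 9 of 32 alternatives. Of 15 tested genes of monocytes and macrophages, 0 were called higher and 1 lower at 1 month and 1 higher and 0 lower at 4 months. The summed signal of that list was 34046 to 41061 in ko and 45300 to 53979 in wt at 1 month, and 74955 to 81166 in ko and 67231 to 72263 in wt at 4 months. The part of macrophages in the Chil3 and Fcnb differences was not tested. Pglyrp1 encodes a peptidoglycan recognition protein that acts on bacterial walls. It was at 657, 1048 and 3196 in ko at 1 month, against 268, 110 and 314 in wt, and at 1050, 612 and 897 in ko at 4 months, against 266, 450 and 363 in wt. Its spread in ko at 1 month was the widest of the 10, a coefficient of variation of 83.7%. Pglyrp1 rose by 2.45 (SE 0.43, limma adjusted p = 0.0162) at 1 month. At 4 months its difference was 1.17 (SE 0.43, limma adjusted p = 0.188), with the groups apart. It was called at 4 months in only 1 of 32 alternatives, the fit of the arrays of that age alone (limma adjusted p = 0.0368).

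**Figure D2:**
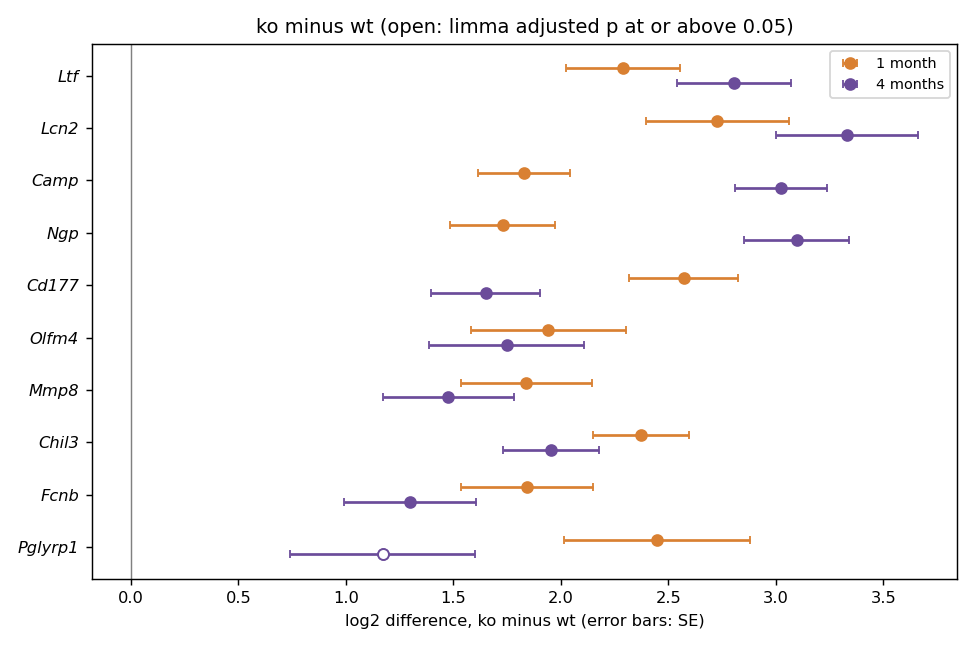
Log2 difference between ko and wt spleens for each of the 10 genes at 1 month (orange) and at 4 months (purple), with limma standard errors; filled points were called and open points were not. All 20 points lie above 0, the only open point is Pglyrp1 at 4 months, and the purple points of Ltf, Lcn2, Camp and Ngp lie to the right of their orange points.

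The array set moved with genotype at 1 month, so the values within it are given too. With the array set as a block in the fit of all arrays, 8 of 10 were called higher at 1 month, with a median of 2.25. At 4 months 9 were, with a median of 1.85. Of all 27041 probe sets, 31 at 1 month and 607 at 4 months were called higher in that fit. In the low set alone, 3 ko against 1 wt spleen at 1 month, the 10 genes had a median of 2.03. At 4 months the median was 2.02 in the low set, 1 ko against 1 wt spleen, and 1.93 in the high set, 2 against 2. A group with 1 array has no spread of its own, so the calls of the low set are not listed. In the high set 5 were called higher at 4 months, as were 69 of all 27041 probe sets. The 5 were Ltf, Lcn2, Camp, Ngp and Chil3, and no 1-month comparison could be made in that set. Without ko replicate 3 at 1 month, the spleen with the highest signal of all 10 genes in its group, 6 of 10 were called at 1 month, with a median of 1.79. Of all probe sets 25 were then called higher at 1 month, against 55 in the full fit. Olfm4, Mmp8, Fcnb and Pglyrp1 then had limma adjusted p = 0.207, 0.0971, 0.0999 and 0.0649. Without wt replicate 2 at 4 months, the spleen with the pancreas signal, 9 of 10 were called at 4 months, with a median of 2.02. Each of the 10 differences at 4 months was larger than with that spleen. Of all probe sets 738 were then called higher at 4 months, against 481 in the full fit. The ratio of means at 4 months then moved by over 1.5 times for 1 gene, Lcn2, which stood at 17.4-fold. Ltf then stood at 9.61-fold, Camp at 10.5-fold and Ngp at 11.3-fold.

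Genes of other stages of the same lineage were measured beside these. Of 5 tested primary granule genes 5 were called higher at both ages, with medians of 2.05 at 1 month and 2.82 at 4 months (all genes, -0.02 and 0.02). Prtn3 (proteinase 3) rose by 2.65 (SE 0.24) and 3.19 (SE 0.24), Mpo (myeloperoxidase) by 2.27 (SE 0.25) and 2.82 (SE 0.25), and Ctsg (cathepsin G) by 1.90 (SE 0.21) and 2.53 (SE 0.21). Among 17 mature neutrophil genes, 6 at 1 month and 7 at 4 months were called higher, and the list's medians were 0.69 and 0.55. Differences in that list ran from -0.45 to 2.02 at 1 month and from -0.61 to 2.20 at 4 months. Wfdc21, of that list, rose by 2.02 (SE 0.22) and 1.42 (SE 0.22). S100a9, a calprotectin subunit, was at 32354, 33435 and 32832 in ko spleens at 1 month, where the highest signals on those arrays were 34518, 37921 and 34081. It was called higher in ko at both ages, and because it lay so near the top of those arrays the size of its difference at 1 month is not given. These lists were written with earlier results of these data known, and no test of one list against another was made.

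A further list held other genes of secondary and tertiary granules. Of 12 tested, 5 were called higher at 1 month and 3 at 4 months, with medians of 0.38 and 0.21. Hp (haptoglobin, which binds free haemoglobin) rose by 1.97 (SE 0.24) at 1 month and stood at 0.93 (SE 0.24, limma adjusted p = 0.06) at 4 months. Mmp9, the gelatinase that names tertiary granules, rose by 1.45 (SE 0.24) at 1 month and stood at 0.85 (SE 0.24, limma adjusted p = 0.0818) at 4 months. Itgam, an integrin subunit, rose by 1.26 (SE 0.25) at 1 month and stood at 0.18 (SE 0.25, limma adjusted p = 0.788) at 4 months. Slpi, a protease inhibitor, was at 0.42 (SE 0.16, limma adjusted p = 0.215) at 1 month and rose by 1.56 (SE 0.16) at 4 months, and Lrg1 rose by 1.00 (SE 0.19) and 1.52 (SE 0.19). Lyz2 and Cybb, which macrophages also express strongly, stood at -0.19 (SE 0.14) and 0.35 (SE 0.14) at 1 month and -0.16 (SE 0.14) and -0.08 (SE 0.14) at 4 months, all not called. The difference of the effect between ages was not called for Hp (-1.05, limma adjusted p = 0.4), Itgam (-1.08, limma adjusted p = 0.405), Mmp9 (-0.61, limma adjusted p = 0.645) or Slpi (1.13, limma adjusted p = 0.096). Of 7 tested granulocyte transcription factors 0 were called at either age by limma, with 3 and 1 at an unadjusted p under 0.05. Over both ages Cebpb and Cebpd, both of the C/EBP family, rose by 0.93 (SE 0.23, limma adjusted p = 0.0302) and 0.66 (SE 0.15, limma adjusted p = 0.0236). Cebpa, of the same family, stood at 0.09 (SE 0.15, limma adjusted p = 0.764) over both ages and was not called. Gfi1, a repressor needed for granulocyte maturation, was at 0.80 (SE 0.25, limma adjusted p = 0.149) at 1 month and -0.09 (SE 0.25) at 4 months. Cebpe, which encodes C/EBP epsilon, was on that list of 8. No probe set had it as its only gene symbol in the array annotation, so it was not measured here.

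**Figure D3:**
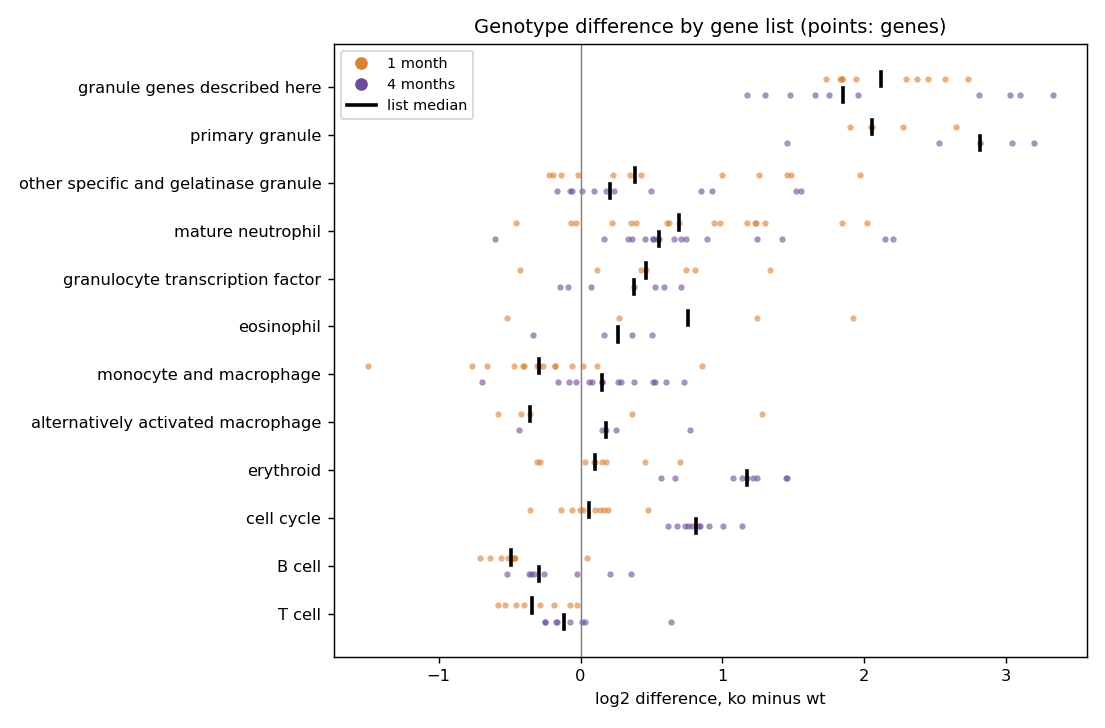
Log2 difference between ko and wt spleens at 1 month (orange) and 4 months (purple) for the genes of each list; points are genes (1 probe set each) and black bars list medians. The 10 granule genes and the 5 primary granule genes lie at or above 1.17 at both ages, and the mature neutrophil and other granule lists spread from below 0 to 2.20.

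Other cell types were followed by lists of their own. Of 9 erythroid genes 0 were called at 1 month by limma (2 at an unadjusted p under 0.05), median 0.10, and 7 were higher at 4 months, median 1.17. Of 10 cell cycle genes 0 were called at 1 month by limma (0 at an unadjusted p under 0.05), median 0.06, and 9 were higher at 4 months, median 0.81. B cell genes (8 tested) had medians of -0.49 and -0.29, with 1 called lower at 1 month and 0 by limma at 4 months (3 at an unadjusted p under 0.05). T cell genes (8 tested) had medians of -0.34 and -0.12, with 0 called at either age by limma (4 and 1 at an unadjusted p under 0.05). The erythroid and cell cycle shifts moved with the granule genes at 4 months, and their part in the result was not tested.

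Of the 4 eosinophil genes tested, 0 were called at either age by limma, with 2 and 0 at an unadjusted p under 0.05. The 2 at 1 month were Prg2, higher in ko, and Ccr3, lower in ko. Prg2, the eosinophil major basic protein, was at 946, 112 and 5253 in ko spleens at 1 month, against 168, 146 and 350 in wt. Epx, eosinophil peroxidase, was at 153, 59.1 and 1335 in ko, against 93.7, 53.0 and 132 in wt. The high spleen for both was ko replicate 3, the same one that stood highest for the 10 granule genes. The summed eosinophil signal was 925 to 7293 in ko and 1344 to 1421 in wt at 1 month. Whether eosinophil precursors add to the granule signal of that spleen was not tested.

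The change with age ran the other way. From 1 to 4 months 9 of the 10 genes were called lower in ko spleens and 9 in wt spleens. Pglyrp1 was not called in either, at -0.63 in ko and 0.65 in wt. The background of probe sets called lower at 4 months was 9.25% in ko and 9.67% in wt. The median log2 difference, 4 months minus 1 month, was -1.65 in ko and -1.73 in wt, against 0.10 and 0.09 for all tested probe sets. In ko, the 3 spleens at 4 months lay below the 3 at 1 month in 9 genes (18.2% of tested probe sets), and in wt in 7 (13.2%). In ko, Chil3 fell most, by 2.59 (SE 0.22, limma adjusted p = 5.31e-06), followed by Fcnb (fell by 1.85, SE 0.31), Cd177 (fell by 1.80, SE 0.25) and Camp (fell by 1.78, SE 0.21). In wt, Camp fell most, by 2.97 (SE 0.21, limma adjusted p = 1.76e-06), followed by Ngp (fell by 2.55, SE 0.24), Ltf (fell by 2.28, SE 0.27) and Chil3 (fell by 2.18, SE 0.22). The rank of Camp by p-value in wt was 2 of 27041. Without wt replicate 2 at 4 months 9 genes were still called lower in wt, with a median of -1.94, as were 2412 of all 27041 probe sets. Within the low array set, 1 spleen of 4 months against 3 of 1 month in ko gave a median of -1.83. There 1 against 1 in wt gave a median of -2.11. Within the high set, 2 against 2 in wt gave a median of -1.39 with 5 called lower, as were 1781 of all probe sets.

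The smaller declines were less firm. In wt, Cd177 fell by 0.88 (SE 0.25, limma adjusted p = 0.0216), Olfm4 by 1.14 (SE 0.36, limma adjusted p = 0.0327) and Mmp8 by 0.89 (SE 0.31, limma adjusted p = 0.0486). The Mmp8 call in wt was lost in 20 of 32 alternatives and those of Cd177 and Olfm4 in 8 each. Pglyrp1 stood at -0.63 (SE 0.43, limma adjusted p = 0.325) in ko and 0.65 (SE 0.43, limma adjusted p = 0.309) in wt. In ko, its value rested on replicate 3 at 1 month, without which the change was 0.0042 (SE 0.35, limma adjusted p = 0.995). Genes of several other cells moved with age too. Erythroid genes were called lower in 5 of 9 in ko and 9 of 9 in wt, and cell cycle genes in 9 of 10 in ko and 10 of 10 in wt. B cell genes were called higher in 7 of 8 in both genotypes, where 3685 of all 27041 probe sets were in ko and 3179 in wt.

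**Figure D4:**
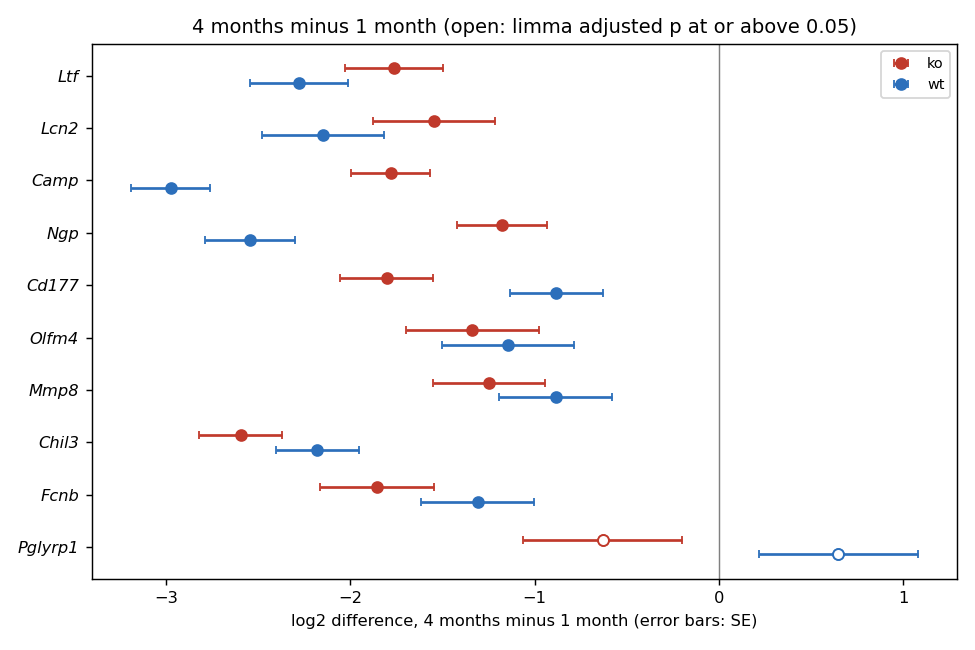
Log2 difference between 4 months and 1 month for each of the 10 genes in ko (red) and wt (blue) spleens, with limma standard errors; filled points were called and open points were not. The points of 9 genes lie below 0 in both genotypes, with Camp and Ngp further left in wt and Cd177 further left in ko, and both Pglyrp1 points are open.

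Whether the genotype effect changed with age was tested as the effect at 4 months minus that at 1 month. By limma 0 of 10 genes were called, with 3 at an unadjusted p under 0.05 (Camp, Ngp and Cd177). Of all tested probe sets 0.0481% were called, and 2338 were at an unadjusted p under 0.05. The estimates did not all point one way, with 4 of 10 above 0 and a median of -0.28. Camp stood at 1.20 (SE 0.30, unadjusted 95% interval 0.55 to 1.84) and Ngp at 1.37 (SE 0.34, interval 0.64 to 2.10), both with limma adjusted p = 0.259. Ltf stood at 0.51 (interval -0.28 to 1.31) and Lcn2 at 0.60 (interval -0.39 to 1.59). Below 0 were Pglyrp1 at -1.28 (interval -2.57 to 0.02), Cd177 at -0.92 (interval -1.68 to -0.16), Fcnb at -0.55 (interval -1.46 to 0.37), Chil3 at -0.42 (interval -1.09 to 0.25), Mmp8 at -0.36 (interval -1.28 to 0.55) and Olfm4 at -0.19 (interval -1.27 to 0.89). Without wt replicate 2 at 4 months, Camp at 1.48 (limma adjusted p = 0.0193) and Ngp at 1.72 (limma adjusted p = 0.0123) were called. At 1 month the Ngp signals in ko, 21416, 21835 and 25152, also lay in the upper part of the range of their arrays.

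Over the 4 groups, the ko spleens at 1 month had the highest mean in 10 of 10 genes, and in 9 their lowest spleen lay above all 9 other spleens. The exception was Pglyrp1, where ko spleens of both ages overlapped. The wt spleens at 4 months had the lowest mean in 9 genes, and in 7 their highest spleen lay below all others. The middle places differed between genes. Ko spleens at 4 months lay wholly above wt spleens at 1 month for Lcn2, Ngp, Cd177, Mmp8 and Pglyrp1, and overlapped with them for Ltf, Camp, Olfm4, Chil3 and Fcnb. The ratio of the means, ko at 4 months over wt at 1 month, ran from 3.69 for Pglyrp1, 2.35 for Lcn2 and 1.81 for Cd177 to 0.85 for Chil3. For Camp those means were 4596 ± 302 in ko at 4 months and 4532 ± 1223 in wt at 1 month (SD, n = 3 each), and for Fcnb 255 ± 22.5 and 260 ± 57.8. From the highest to the lowest group mean the span was 31.98-fold for Lcn2, 29.8-fold for Chil3 and 28.5-fold for Camp, and 7.08-fold for Pglyrp1 and 7.77-fold for Mmp8. These spans rest on wt signals at 4 months that lay under 100 in 1 spleen for Lcn2, Cd177, Mmp8, Chil3 and Fcnb and in 3 for Olfm4. Without wt replicate 2 at 4 months the span was 51.8-fold for Lcn2, 36.3-fold for Chil3, 36.5-fold for Camp and 11.4-fold for Mmp8. The wt spleens at 4 months then still had the lowest mean in 9 genes, and lay below all others in 9. How many of all tested probe sets show these orders of the 4 groups was not counted, so the counts only describe these genes.

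Within groups, the genes tended to be high or low in the same spleen. In ko replicate 3 at 1 month and in wt replicate 2 at 4 months all 10 genes lay above their group means, by a mean of 0.47 and 0.52 log2 units. That wt spleen was also highest of its group in mean log2 signal of the erythroid list (11.95, against 11.41 and 11.14). The same held for the cell cycle list (11.08, against 10.55 and 10.30). The granulocyte transcription factor list was lowest there (8.98, against 9.06 and 9.23). In ko replicate 2 at 1 month 0 of 10 did, and in wt replicate 2 at 1 month 1 of 10. After group means were removed, Pearson's r between pairs of genes over the 12 spleens was positive in 45 of 45 pairs, with a median of 0.54 and a range of 0.02 to 0.95. All values of a spleen share 1 library and 1 array scale, so these are a description. The pairs Ltf with Ngp (0.95), Lcn2 with Ngp (0.91) and Ltf with Lcn2 (0.89) were the tightest, and Mmp8 with Fcnb (0.02) the loosest. Without wt replicate 2 at 4 months, over 11 spleens, r was positive in 43 of 45 pairs, with a median of 0.44 and a range of -0.33 to 0.90.

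**Figure D5:**
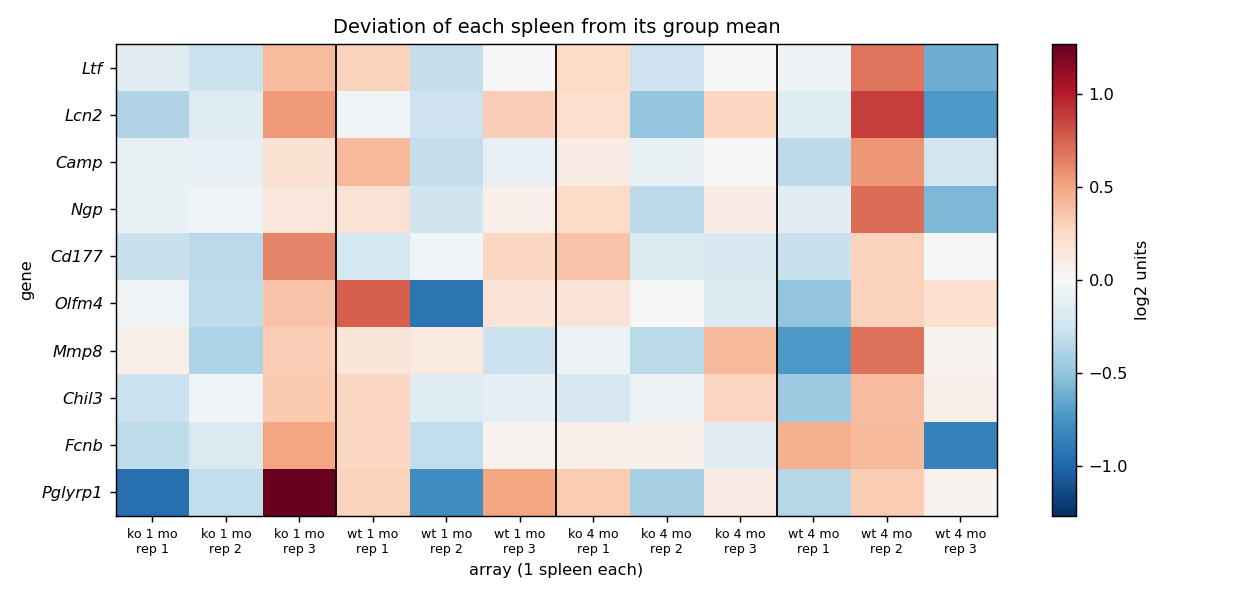
Deviation of each spleen from the mean of its group (log2 units, colour scale) for the 10 granule genes in rows and the 12 spleens in columns, ko left of wt at each age. The columns of ko replicate 3 at 1 month and wt replicate 2 at 4 months are red throughout, and the deepest red and blue of ko at 1 month are in the Pglyrp1 row.

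Among 12329 other genes, those whose profile over the 12 spleens was most like the mean standardised profile of the 10 were Prtn3 (r = 0.991), Mpo (0.982), Elane (0.972), Dnmt1 (0.967) and Emilin2 (0.962). The points share the group differences, which set most of these values. With group means removed, r was 0.957 for Prtn3, 0.850 for Mpo, 0.965 for Elane, 0.866 for Dnmt1 and 0.745 for Emilin2. Prtn3, Mpo and Elane encode primary granule proteins. Dnmt1 encodes the maintenance DNA methyltransferase, at a mean of 4769 in ko and 3148 in wt at 1 month and 3194 in ko and 1999 in wt at 4 months. Emilin2 encodes an extracellular matrix glycoprotein.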

How the data were processed

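The groups come from the sample labels. What the authors deposited is a linear intensity for every probe set, and MAS5 is named, without a version, per the submitters' processing notes. The 2% trimmed mean of each array stood at 500 in the deposited values, and scaling to it was repeated. The 64 control probe sets were left out. log2(signal + 32) of the 27041 probe sets with a signal of at least 100 in at least 3 arrays was fitted with limma 3.58.1 in R 4.3.3 (4 group means, eBayes with an intensity trend, 8 residual and 8.27 prior degrees of freedom, 2-sided tests, Benjamini-Hochberg over all probe sets). Errors are limma SE, or SD of 3 mice, and precision is limited by how many arrays there are. The fit was tested on simulated data. Members, lists and tests were chosen with earlier results of these data known. Genes were named from a set given by rule: all members, Il1rn, up to 4 genes of each list by p over both ages and the 5 most alike. Not all list genes of that set were named. Itgam, Lyz2, Cybb, Gfi1 and Cebpa were added after their values were seen. Lists held 1 probe set a gene, the brightest. Promoters and gene order came from RefSeq tables of GRCm38.p6; the build of the array annotation is not given in the sources used here. Alternatives were other scalings, offsets, filters, priors, thresholds, blocks, array sets and each array left out.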

Additional observations from a re-analysis of the deposited data

How the results depend on the processing

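Ltf, Lcn2, Camp, Ngp and Chil3 kept their direction and their call in all 31 alternatives of the genotype comparison at 1 month, all 32 at 4 months, and all of both age comparisons. No gene called in the full fit changed direction in any alternative. The number of the 10 genes called was 10 at 1 month and 6 in the low array set alone, and 9 at 4 months and 5 in the high set alone. For age in wt it was 9, and 5 in the high set alone. Leaving out 1 array at a time gave 6 to 10 at 1 month (6 without ko replicate 3), 6 to 9 at 4 months, 10 over both ages, 6 to 9 for age in wt, 8 to 9 for age in ko and 0 to 2 for the difference between ages (2, Camp and Ngp, without wt replicate 2 at 4 months). The cause of these losses was not tested. Not called and of changed sign were Olfm4 for the difference between ages with an offset of 1 (0.35), of 8 (0.14) and without wt replicate 2 at 1 month (0.27), Fcnb for it in the low set (0.43), and Pglyrp1 for age in ko without ko replicate 3 at 1 month (0.0042). Over arrays left out in turn, those of Olfm4 ran from -0.57 to 0.27 and those of Pglyrp1 from -1.11 to 0.0042. No label pairs same-numbered mice, and their deviations correlated at 0.05, 0.03 and 0.13 at 1 month and 0.05, -0.20 and -0.05 at 4 months. With the replicate block, the counts were 10, 9, 10, 0, 8 and 9 in the order 1 month, 4 months, both ages, difference, age in wt and age in ko. Over all probe sets the calls ranged from 32 to 1590 at 1 month (120 in the full fit), 84 to 1092 at 4 months (621), 103 to 2918 over both ages (1457), 1 to 92 for the difference (13), 1559 to 7847 for age in wt (5795) and 1459 to 11052 for age in ko (6187). The 1590 came without wt replicate 3 at 1 month, where all 10 genes were called. That spleen was the only wt array of its age in the low set. Its removal left low-set ko spleens against high-set wt spleens. Neither the 1590 nor the 10 calls of that fit can therefore be assigned to genotype rather than array set.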
